A study of Mus musculus with 4 samples.

Results

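S100 proteins, annexins and galectins are the members of 3 gene families described here in group 2 innate lymphoid cells (ILC2s). These lymphocytes settle in tissues, carry no rearranged antigen receptor and make type 2 cytokines. The members were chosen by symbol alone, as S100 followed by a, b, g, p or z, Anxa followed by a digit, and Lgals followed by a digit other than Lgals3bp. This gave 38 of 22083 genes, namely 18 S100 symbols, 12 annexins and 8 galectins. The S100 symbols include S100pbp, which encodes an S100-binding protein and not an S100 protein. Total RNA was sequenced in 4 libraries of sorted ILC2s, all from wild-type C57BL/6 mice at an age of 9 weeks with no treatment or transgene named. Small intestinal lamina propria gave 2 libraries (SI-ILC2s, called intestinal) and white adipose tissue of the mesentery gave 2 (WAT-ILC2s, called adipose). Values in a pair are for replicates 1 and 2, in that order. Whether the replicates are separate animals is not stated, and the sort markers were not given in the sources used here. All p-based calls and spreads therefore rest on differences between libraries, which may be technical.

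S100 proteins are small calcium sensors with EF-hand motifs that mostly work as dimers and change the activity of partner proteins when calcium rises. Annexins bind negatively charged phospholipids in a calcium-dependent way and take part in membrane repair, vesicle traffic and the resolution of inflammation. Several S100 proteins bind the flexible start of a particular annexin, S100A10 that of annexin A2 and S100A11 that of annexin A1. Galectins are lectins for galactose-containing sugars that act in the cytosol and, after release by an unusual route, on glycoproteins of the cell surface.

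S100a4, Anxa1, Lgals1 and S100a6 were much higher in WAT-ILC2s than in SI-ILC2s, with mean RPKM (reads scaled to gene length and depth) 33.9, 31.6, 46.3 and 27.0 times as high. They ranked 3, 4, 8 and 10 of 8230 tested genes by the size of the difference toward WAT-ILC2s. S100a10, S100a11 and Anxa5 were 3.85, 3.98 and 4.30 times as high, and Anxa11 was the only tested member with a higher mean in SI-ILC2s. The families were selected on these RPKM values, since S100a4, S100a6, Anxa1 and Lgals1 were already known to be among the largest differences between the tissues. The differences between tissues are therefore given as a description, without p-values, and support nothing. Tested genes were those with at least 1 RPKM in at least 2 libraries, which 18 of the 38 members passed.

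Among the 18 tested members, 15 passed the threshold of the fit over all genes (limma on log2(RPKM + 1), adjusted p below 0.05) toward WAT-ILC2s, 0 passed toward SI-ILC2s and 3 did not pass. Over all 8230 tested genes 29.6% passed toward WAT-ILC2s and 17.9% toward SI-ILC2s. The 15 were 5 of 5 tested S100 genes, 5 of 8 annexins and 5 of 5 galectins. Of the 18, S100a6, S100a13, Anxa3 and Lgals1 reached 1 RPKM in WAT-ILC2s only and could pass the filter only through that tissue. S100a4 (0.840 and 1.43 RPKM in SI-ILC2s) and Lgals3 (0.786 and 1.01) reached it in a single SI-ILC2 library. They too passed the filter only with the WAT-ILC2 libraries, so the count of calls toward WAT-ILC2s is partly set by the filter. Beyond a change of 1 there were 10 called members and beyond 2 there were 4, against 8.94% and 0.972% of tested genes. The 4 are S100a4, Anxa1, Lgals1 and S100a6, whose known differences led to the choice of the families. Their count was thus fixed in advance and shows no excess. The median change of the tested members was -1.07 (SI-ILC2 minus WAT-ILC2, log2 scale), against -0.15 for all tested genes. Over all 38 members without a filter the median was only -0.26, against -0.0081 over all 22083 genes. Other scalings moved the median of all tested genes to between -0.27 and -0.02. The share of all calls that lay toward SI-ILC2s was 37.6%, and it was 48.1% after median-of-ratios scaling, 48.8% after quantile normalization and 27.6% after rescaling to equal sums.

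Counted over all 38 members without a filter, both WAT-ILC2 libraries lay above both SI-ILC2 libraries for 22, the reverse held for 3 (Anxa11, Lgals7 and S100a2), and 13 overlapped. Over all 22083 genes the corresponding shares were 30.8% and 23.0%. Among the 18 tested members these counts were 17 and 1, against 45.9% and 29.8% of tested genes. Lgals3, at 0.786 and 1.01 RPKM in the intestinal libraries and 1.55 and 1.53 in the adipose ones, lay just inside the filter, and S100pbp, at 0.519 and 0.638 against 1.14 and 0.940, just outside.

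**Figure D1:**
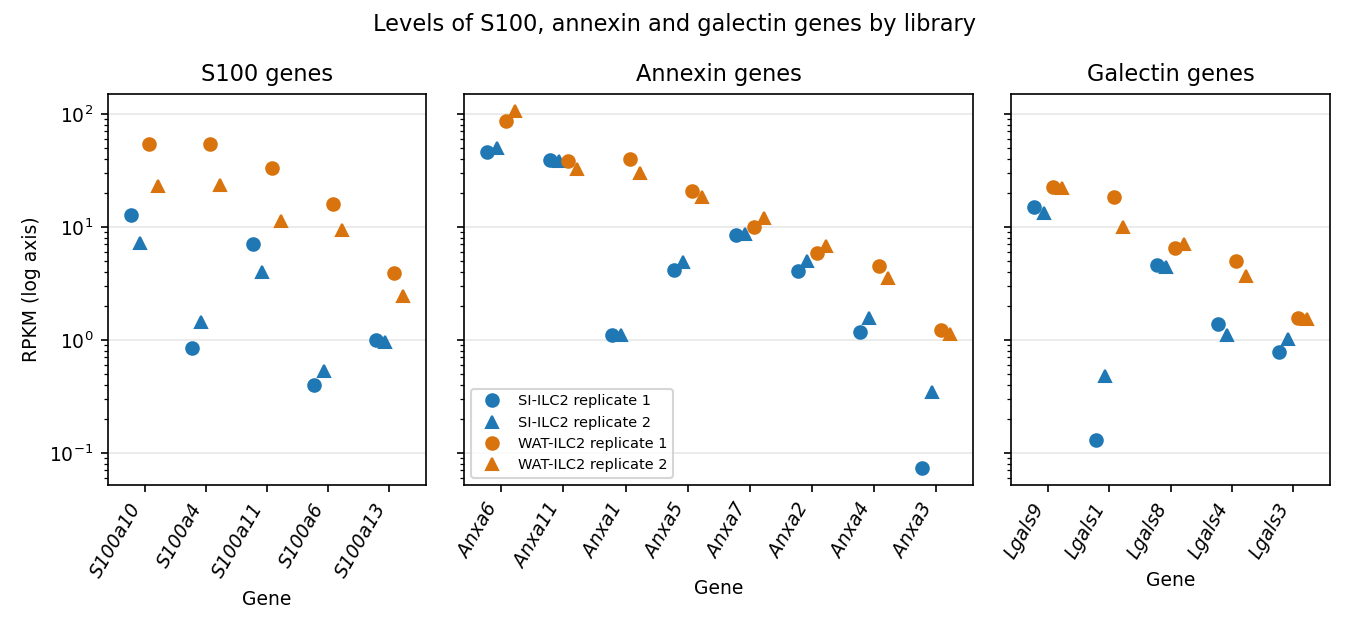
RPKM on a log axis of the 18 tested members in each of the 4 libraries, blue for SI-ILC2s and orange for WAT-ILC2s, with circles for replicate 1 and triangles for replicate 2. S100a4, S100a6, Anxa1 and Lgals1 show the widest gap between tissues, and the replicates of S100a4, S100a10 and S100a11 in WAT-ILC2s lie far apart.

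S100a4, whose protein binds non-muscle myosin and is found in motile cells, was at 0.840 and 1.43 RPKM in SI-ILC2 replicates 1 and 2 and at 53.6 and 23.4 RPKM in WAT-ILC2 replicates 1 and 2 (log2 change -4.11, SE 0.37). The lowest WAT-ILC2 library was far above both SI-ILC2 libraries, and the WAT-ILC2 libraries themselves differed 2.30-fold. S100a6, which encodes calcyclin, was at 0.402 and 0.535 RPKM in the intestinal libraries and 15.9 and 9.36 in the adipose ones (log2 change -3.17, SE 0.24). With GENCODE exonic lengths and the estimated depths, the SI-ILC2 values stood for about 37 and 50 reads of S100a4 and about 42 and 44 reads of S100a6. These genes were thus low but detected in the intestine.

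S100a10, the partner of annexin A2, was at 12.8 and 7.23 RPKM in the intestinal libraries and 53.9 and 23.2 in the adipose ones (log2 change -1.77, SE 0.41). S100a11, the partner of annexin A1, was at 7.06 and 4.02 RPKM in the intestinal libraries and 32.9 and 11.2 in the adipose ones (log2 change -1.68, SE 0.47). The size of these differences depended on single libraries. Without WAT-ILC2 replicate 1 the log2 change was -1.18 for S100a10, -0.94 for S100a11 and -3.52 for S100a4, and without WAT-ILC2 replicate 2 it was -2.36, -2.41 and -4.69. S100a11 no longer passed the threshold without SI-ILC2 replicate 2, nor when no filter was used. S100a13, whose protein takes part in the release of a fibroblast growth factor, was at 0.992 and 0.959 RPKM in the intestinal libraries and 3.92 and 2.44 in the adipose ones (log2 change -1.06, SE 0.19). In all 5 genes the libraries of the tissues did not overlap.

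Sequence shared with other genes touches S100a4 and S100a11. In GENCODE M21, 47.4% of the 50-base stretches of S100a4 transcripts also lie in Gm42674, an overlapping gene on the same strand. Of those of S100a11 transcripts, 41.1% also lie in the predicted genes Gm12854, Gm7665 and Gm29240. How the authors' counting treated such reads was not given in the sources used here, so the levels of S100a4 and S100a11 are uncertain.

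The makeup of the S100 signal differed between tissues when taken as shares within each library, where depth cancels. S100a4 made up 32.9% and 32.4% of the summed S100 RPKM in WAT-ILC2 replicates 1 and 2, and 3.56% and 8.72% in SI-ILC2 replicates 1 and 2. S100a10 made up 33.0% and 32.2% in WAT-ILC2s and 54.3% and 44.0% in SI-ILC2s. The ratio of S100a4 to S100a10 was thus 0.995 and 1.01 in the WAT-ILC2 libraries although each gene differed more than 2-fold between them, and 0.0656 and 0.198 in the SI-ILC2 libraries. Among the tested S100 genes, the order of the mean levels in SI-ILC2s was S100a10, S100a11, S100a4, S100a13 and S100a6. Replicates of S100a4 and S100a13 overlapped, and those of S100a6 overlapped with the untested S100pbp and S100a16. In WAT-ILC2s S100a4 and S100a10 could not be ordered.

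In mice 14 of the 18 S100 symbols lie on chromosome 3. Of these, 12 lie between positions 90511034 and 90695721 (GRCm38), and S100a11 (93520488 to 93526287) and S100a10 (93555080 to 93564643) lie farther along. Along the chromosome, S100a13, S100a4 and S100a6 each lie between genes below 1 RPKM in all 4 libraries, and S100a11 and S100a10 lie side by side. S100a4 (90603771 to 90606045) and S100a6 (90612882 to 90624181) flank S100a5, which encodes a protein known from olfactory neurons and was listed at 0 in 3 libraries and at 0.0922 RPKM in SI-ILC2 replicate 1. The neighbours on the other side, S100a3 and S100a2, stayed at or below 0.118 and 0.166 RPKM in all 4 libraries. S100a8 and S100a9, which encode the calprotectin subunits abundant in neutrophils, stayed at or below 0.0426 and 0.130 RPKM. In all 4 libraries each of the 11 neutrophil markers was also below 1 RPKM, with Mmp9 and Mpo the most abundant at up to 0.497 and 0.546 RPKM.

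**Figure D2:**
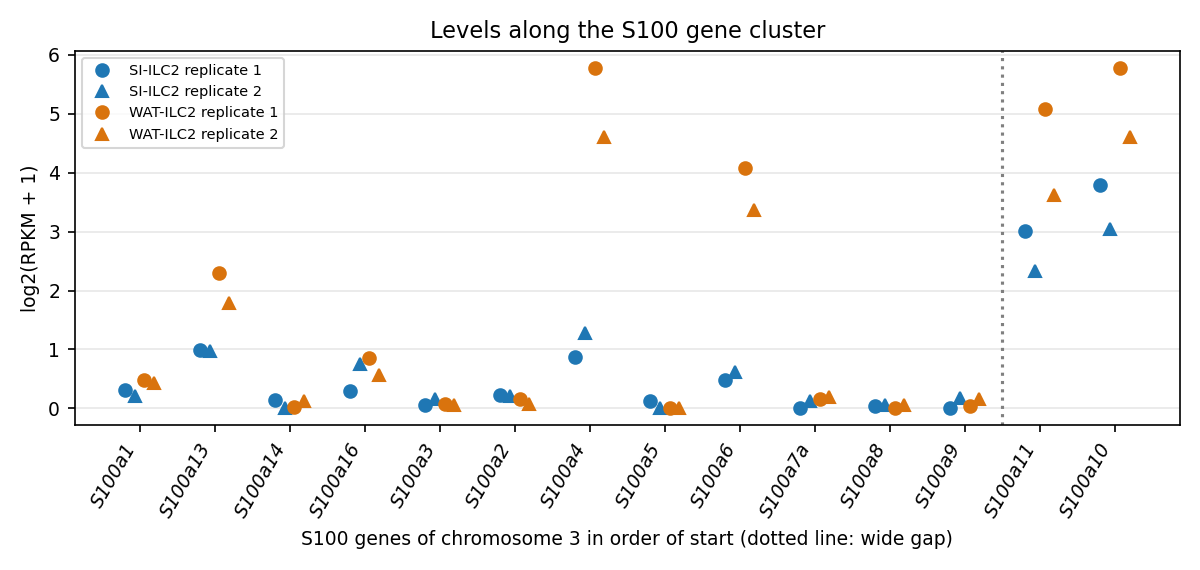
Level, as log2(RPKM + 1), of the 14 S100 genes of mouse chromosome 3 in their order along the chromosome, blue for SI-ILC2s and orange for WAT-ILC2s, with circles for replicate 1 and triangles for replicate 2. S100a13, S100a4, S100a6, S100a11 and S100a10 are the genes above 1 RPKM in WAT-ILC2s, and the other 9 lie near 0 to 0.812 RPKM there.

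The sequence before the transcription start is shown for the members with the widest tissue gap that could be matched, S100a4, S100a6 and Anxa1, for S100a11 with its many motif matches, and for Anxa11 as the member with little difference. RefSeq starts on GRCm38.p6 were matched by symbol for 30 of the 38 members. Each run is 250 bases, 5′ to 3′ on the strand of the gene, and ends at the base before the start. Capitals mark matches on either strand to the TATA box motif TATAAA, to the AP-1 motif TGANTCA, to the GC box motif GGGCGG and to the E box motif CACGTG. The windows are chr3:90603520-90603769 (plus strand), chr3:90612644-90612893 (plus), chr19:20390672-20390921 (minus), chr3:93520246-93520495 (plus) and chr14:25841905-25842154 (plus).
S100a4: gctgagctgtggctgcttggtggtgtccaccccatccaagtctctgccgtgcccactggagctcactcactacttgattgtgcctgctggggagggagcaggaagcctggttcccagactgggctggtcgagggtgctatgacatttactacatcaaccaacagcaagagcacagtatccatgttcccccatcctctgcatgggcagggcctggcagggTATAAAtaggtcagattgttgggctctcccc
S100a6: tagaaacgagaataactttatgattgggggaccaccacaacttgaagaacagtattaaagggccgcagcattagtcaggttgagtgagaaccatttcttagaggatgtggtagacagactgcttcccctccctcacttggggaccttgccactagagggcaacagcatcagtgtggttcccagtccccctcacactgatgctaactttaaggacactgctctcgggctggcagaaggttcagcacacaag
Anxa1: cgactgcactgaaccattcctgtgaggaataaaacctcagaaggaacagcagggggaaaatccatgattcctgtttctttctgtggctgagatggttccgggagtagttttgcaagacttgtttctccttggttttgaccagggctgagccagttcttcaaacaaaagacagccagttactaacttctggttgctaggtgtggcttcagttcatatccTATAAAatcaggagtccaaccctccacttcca
S100a11: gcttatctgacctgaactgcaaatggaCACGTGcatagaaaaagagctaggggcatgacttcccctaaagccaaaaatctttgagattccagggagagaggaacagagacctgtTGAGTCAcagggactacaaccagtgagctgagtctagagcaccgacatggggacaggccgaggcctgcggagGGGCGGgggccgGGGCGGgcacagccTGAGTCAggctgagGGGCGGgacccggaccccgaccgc
Anxa11: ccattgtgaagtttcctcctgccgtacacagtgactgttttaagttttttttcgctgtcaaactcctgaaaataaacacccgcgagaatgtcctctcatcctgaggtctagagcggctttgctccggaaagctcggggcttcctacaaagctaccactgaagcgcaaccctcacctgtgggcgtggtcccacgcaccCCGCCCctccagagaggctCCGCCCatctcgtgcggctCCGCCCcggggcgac

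S100a4 and Anxa1 each have a TATAAA match, with 25 and 26 bases between it and the start. S100a6 has no match to any of the 4 motifs in this window. S100a11 has 2 AP-1, 3 GC box and 1 E box matches, and Anxa11 has 3 GC boxes. Among the 30 matched members TATAAA was found in 5 and TGANTCA in 3, against 12.97% and 6.87% of 27025 promoters of the same length. GGGCGG was found in 8 of the 30 and CACGTG in 1, against 32.9% and 6.05% of all. A match to these letters describes the sequence and was not tied to the binding of any factor.

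Anxa1, which encodes the glucocorticoid-induced annexin A1 that signals through formyl peptide receptors, was at 1.10 and 1.11 RPKM in the intestinal libraries and 39.8 and 30.2 in the adipose ones (log2 change -4.08, SE 0.17). The libraries of each tissue lay close together and far from those of the other. With GENCODE lengths the SI-ILC2 values stood for about 244 and 193 reads. Anxa1 made up 1.06% and 1.01% of the summed annexin RPKM in SI-ILC2s, against 19.1% and 14.4% in WAT-ILC2s. Its receptor genes Fpr1 and Fpr2 stayed at or below 0.0544 and 0.210 RPKM in all 4 libraries.

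Anxa5, whose protein binds exposed phosphatidylserine, was at 4.16 and 4.89 RPKM in the intestinal libraries and 20.7 and 18.2 in the adipose ones (log2 change -1.89, SE 0.15). Anxa6, the most abundant member of the family and the gene of an annexin of membrane and cholesterol traffic, was at 46.0 and 49.4 RPKM in the intestinal libraries and 87.2 and 105 in the adipose ones (log2 change -0.99, SE 0.16). Anxa4 was at 1.17 and 1.55 RPKM in the intestinal libraries and 4.51 and 3.51 in the adipose ones (log2 change -1.08, SE 0.17). Libraries of the tissues were separated for each of these genes. Anxa3 was at 0.0741 and 0.346 RPKM in the intestinal libraries and 1.23 and 1.13 in the adipose ones, a change of -0.86 that became -2.20 with a pseudocount of 0.1.

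The other tested annexins differed little between tissues and did not pass the threshold. Anxa2, which encodes the partner of S100A10, was at 4.06 and 4.95 RPKM in the intestinal libraries and 5.82 and 6.76 in the adipose ones (log2 change -0.41, SE 0.16). Anxa7, which encodes synexin, was at 8.45 and 8.62 RPKM in the intestinal libraries and 10.004 and 11.9 in the adipose ones (log2 change -0.32, SE 0.15). Anxa11, whose protein tethers RNA granules to lysosomes, was at 38.8 and 38.6 RPKM in the intestinal libraries and 38.4 and 32.5 in the adipose ones (log2 change 0.13, SE 0.15). Its SI-ILC2 libraries lay above the WAT-ILC2 libraries by a small margin, and the change was -0.02 after rescaling to equal sums. Anxa2 passed the threshold after that rescaling, with a change of -0.54. Anxa11 shares 16.2% of its 50-base stretches with other genes, namely Gm2260, Gm2274 and the opposite-strand gene Anxa11os.

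S100 genes and their annexin partners differed between tissues by unequal amounts. The ratio of S100a10 to Anxa2 RPKM was 3.16 and 1.46 in SI-ILC2s, against 9.25 and 3.43 in WAT-ILC2s. The ratio of S100a11 to Anxa1 was 6.40 and 3.61 in SI-ILC2s, against 0.826 and 0.371 in WAT-ILC2s. S100A6 is known to bind annexin A11, and the ratio of their RPKM was 0.0103 and 0.0139 in SI-ILC2s, against 0.415 and 0.288 in WAT-ILC2s. None of these ratios overlapped between tissues, and those with S100a10 and S100a11 also differed between the libraries of a tissue. For S100a10 to Anxa2 the gap between tissues, from 3.16 to 3.43, was narrower than the spread within either tissue. Separation was common, as levels of 45.9% of tested genes were separated toward WAT-ILC2s and 29.8% toward SI-ILC2s.

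Lgals1 encodes galectin-1, a dimeric lectin, and was at 0.131 and 0.481 RPKM in the intestinal libraries and 18.3 and 10.01 in the adipose ones (log2 change -3.49, SE 0.29). The SI-ILC2 values stood for about 9 and 26 reads, so the size of this difference is imprecise. With a pseudocount of 0.1 in place of 1, the change of Lgals1 was -5.22, that of S100a6 -4.45, that of S100a4 -4.89 and that of Anxa1 -4.85. Lgals9, whose protein is a ligand of the inhibitory receptor TIM-3, was at 15.1 and 13.2 RPKM in the intestinal libraries and 22.4 and 22.3 in the adipose ones (log2 change -0.63, SE 0.14). It was the most abundant galectin in every library, with 67.4% and 63.9% of the summed galectin RPKM in SI-ILC2s, against 41.6% and 49.7% in WAT-ILC2s. Its call was lost without SI-ILC2 replicate 2.

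Lgals8, whose protein marks damaged vesicles, was at 4.59 and 4.40 RPKM in the intestinal libraries and 6.49 and 7.03 in the adipose ones (log2 change -0.50, SE 0.14). Lgals3, the gene of the chimeric galectin-3 of macrophages, had a log2 change of -0.42 (SE 0.13). Libraries were separated for both genes, but their calls were lost with median-of-ratios scaling, with quantile normalization and without a filter. Both were also lost without either SI-ILC2 library or WAT-ILC2 replicate 2, and that of Lgals3 without WAT-ILC2 replicate 1.

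Lgals4, best known from the intestinal epithelium, was higher outside the intestine, at 1.37 and 1.09 RPKM in the intestinal libraries and 4.94 and 3.68 in the adipose ones (log2 change -1.24, SE 0.17). Of 13 epithelial markers, 9 stayed below 1 RPKM in all 4 libraries. The markers summed to 6.19 and 13.9 RPKM in SI-ILC2s and to 10.9 and 9.05 in WAT-ILC2s. Krt8 was at 4.32 RPKM in SI-ILC2 replicate 2 and at or below 0.369 in the other libraries. Epcam, which lymphocytes can also express, was at 4.68 and 6.04 RPKM in the intestinal libraries and 8.28 and 7.85 in the adipose ones. Fabp1, Fabp2, Muc2, Reg3b and Reg3g stayed at or below 0.181 RPKM.

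**Figure D3:**
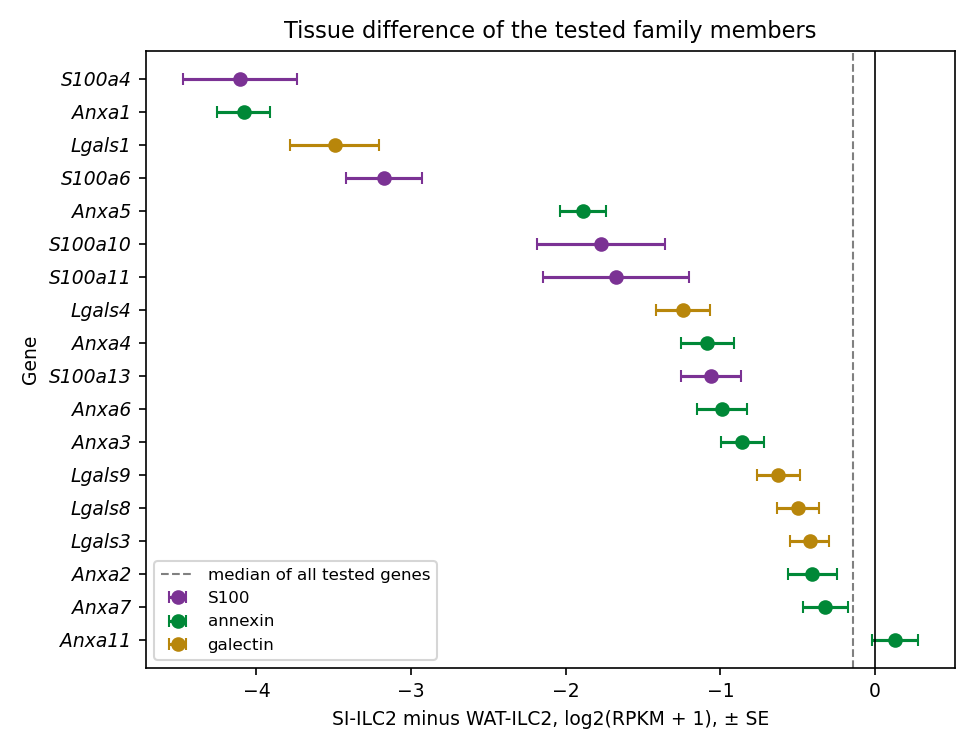
Difference between tissues (SI-ILC2 minus WAT-ILC2, log2(RPKM + 1)) of the 18 tested members, with points for the fitted value and bars for its SE. The dashed line is the median of all tested genes, -0.15, and 17 of the 18 members lie to its left.

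The remaining 20 members were not tested. Their values ran from 0 to 1.14 RPKM, and 18 of them stayed below 0.5 RPKM in every library. They are S100a1, S100a2, S100a3, S100a5, S100a7a, S100a8, S100a9, S100a14, S100a16, S100b, S100g, S100pbp, S100z, Anxa8, Anxa9, Anxa10, Anxa13, Lgals2, Lgals7 and Lgals12. Many encode proteins of epithelia, glia or neutrophils, and Lgals12 is an adipocyte gene. Lgals7, known from stratified epithelia, was at 0.298 and 0.375 RPKM in the intestinal libraries and 0.0607 and 0.103 in the adipose ones, about 21 reads in each SI-ILC2 library. It passed the threshold toward SI-ILC2s when no filter was used.

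The libraries of a tissue differed most in the S100 genes. The S100 RPKM summed to 163 and 72.0 in WAT-ILC2 replicates 1 and 2, and to 23.6 and 16.4 in SI-ILC2 replicates 1 and 2. The annexins summed to 208 and 210 RPKM in WAT-ILC2s and to 104 and 110 in SI-ILC2s, and the galectins to 54.0 and 44.8 and to 22.4 and 20.7. Replicate 1 exceeded replicate 2 by more than 0.5 on the log2(RPKM + 1) scale in WAT-ILC2s for 6 of the 18 tested members, against 4.9% of all tested genes. The 6 were Lgals1 and all 5 S100 genes, of which S100a13 only just passed at 0.52. In SI-ILC2s replicate 1 was higher by more than 0.5 for 2 members, S100a10 and S100a11, against 1.58%. Replicate 2 exceeded replicate 1 by as much for 0 tested members in either tissue, against 4.76% of tested genes in WAT-ILC2s and 4.41% in SI-ILC2s. The WAT-ILC2 libraries differed by more than 1 on this scale for 3 members, S100a4, S100a10 and S100a11, against 0.79% of tested genes, and the SI-ILC2 libraries for 0, against 0.547%. For S100a4 and S100a6 the SI-ILC2 libraries were in the opposite order, with replicate 2 higher.

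These 6 members are also the tested members with the shortest exonic sequence, 511 to 1367 bases, and short genes in general were higher in replicate 1. Among protein-coding genes of up to 1000 bases the median difference between replicates 1 and 2 was 0.33 in WAT-ILC2s and 0.13 in SI-ILC2s (184 genes). It fell with length to -0.07 and -0.08 in genes above 8000 bases (1380 genes). In the shortest range 35.3% of genes passed 0.5 in WAT-ILC2s and 9.78% in SI-ILC2s. Between 1001 and 1500 bases 23.2% passed it in WAT-ILC2s and 8.05% in SI-ILC2s. The difference between tissues also varied with length, with a median of 0.13 toward SI-ILC2s in the shortest range and -0.23 in the longest. Lgals1, S100a4, S100a11 and S100a13 are in the shortest range. S100a6 and S100a10 are in the range of 1001 to 1500 bases, whose median difference between tissues was -0.02. The part of length in the replicate differences of these members was not tested.

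**Figure D4:**
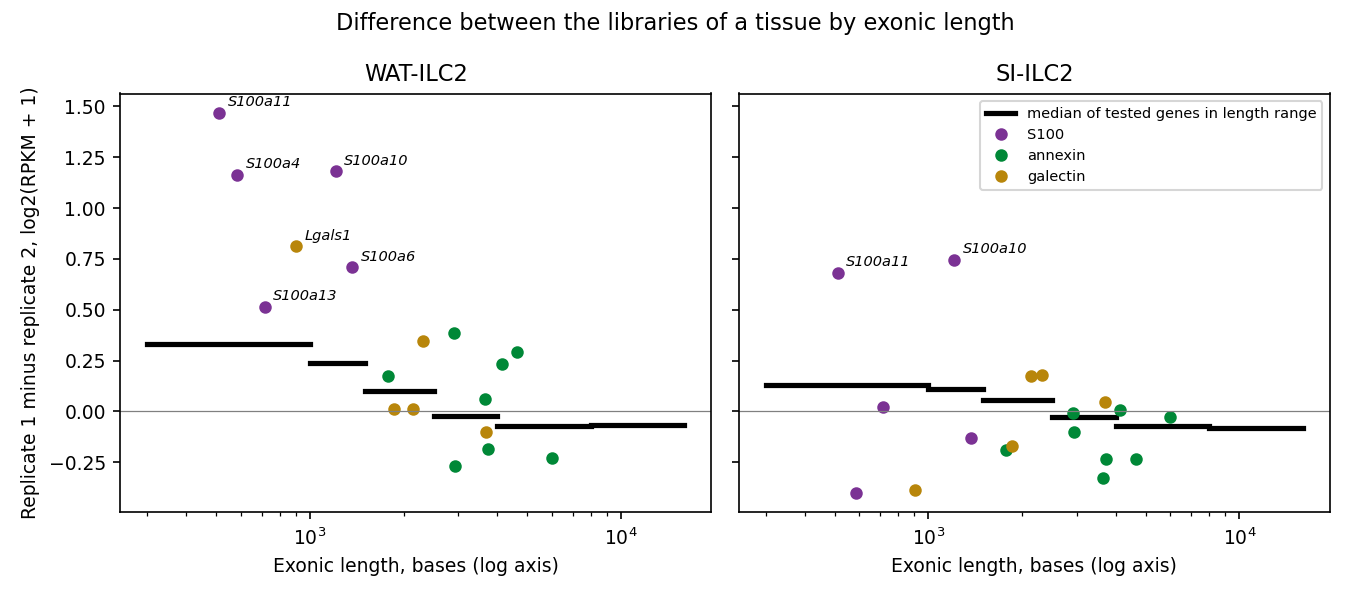
Replicate 1 minus replicate 2 on the log2(RPKM + 1) scale against exonic length in bases (log axis), for WAT-ILC2s (left) and SI-ILC2s (right). Points are the 18 tested members by family and black bars are medians of tested protein-coding genes in 6 length ranges, which fall from 0.33 to -0.07 in WAT-ILC2s.

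Markers of other cells moved with the tissue as well, and in bulk RNA fewer cells of a type cannot be told apart from less RNA per cell. Fibroblasts express S100a4, S100a6, Lgals1 and several annexins. Of 10 fibroblast markers 4 were tested, of which Col3a1, Dcn and Sparc passed toward WAT-ILC2s and Fn1 toward SI-ILC2s. The most abundant were Sparc (1.42 and 0.648 RPKM intestinal, 6.82 and 5.67 adipose) and Dcn (0.0609 and 0.0958 RPKM intestinal, 6.11 and 1.87 adipose). The 10 markers summed to 4.82 and 4.74 RPKM in the intestinal and 18.9 and 12.9 RPKM in the adipose libraries. With 2 libraries per tissue, the order of the replicates cannot show where RNA came from. Of the 6 that were not tested, Col1a2 (0.163 and 0.192 against 0.951 and 1.07 RPKM), Col6a1 (0.147 and 0.165 against 0.962 and 1.21 RPKM), Col1a1, Lum and Pdgfra had a higher mean in WAT-ILC2s. Pdgfrb was lower there (0.707 and 0.994 against 0.316 and 0.373 RPKM). Pdgfra, Lum and Col1a1 stayed at or below 0.0796, 0.0955 and 0.319 RPKM. Red cell genes passed toward WAT-ILC2s for 5 of 6, with sums of 41.6 and 13.2 RPKM in the intestinal libraries and 140 and 88.9 in the adipose ones. Hba-a2 and Hba-a1 were the most abundant of these, at up to 45.0 and 40.9 RPKM. The part of fibroblast and red cell RNA in the levels of the 3 families was not tested.

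Markers of other cells were also measured. Of 8 adipocyte genes Fabp4 alone was tested and passed toward WAT-ILC2s, with sums of 1.14 and 0.803 against 5.38 and 4.82 RPKM, while Lipe, the next most abundant, was at or below 0.504 and Adipoq at or below 0.121 RPKM. Of 12 macrophage and dendritic cell genes 3 were tested and Lyz2 passed toward WAT-ILC2s, with sums of 5.21 and 3.56 against 8.37 and 11.4 RPKM, and Cd68, the next most abundant, was at or below 2.33 RPKM. Among 8 endothelial genes Plvap passed toward WAT-ILC2s and Pecam1 toward SI-ILC2s (sums 6.75 and 9.56 against 11.1 and 25.8 RPKM). The 6 mesothelial genes all stayed below 1 RPKM, with sums of 0.279 and 0.336 against 1.71 and 0.685, led by Upk3b and Msln at up to 0.438 and 0.562 RPKM. Cpa3 of 7 mast cell genes passed toward WAT-ILC2s (sums 0.624 and 0.546 against 2.99 and 1.73 RPKM), and Fcer1a followed at up to 0.525 RPKM. Of 8 T cell genes Cd3g passed toward WAT-ILC2s and Cd6 toward SI-ILC2s (sums 9.62 and 8.45 against 23.8 and 13.03 RPKM), led by Cd3g itself and Cd3e at up to 21.2 and 1.81 RPKM. Cd79b and Igj of 6 B cell genes (sums 24.7 and 18.9 against 3.15 and 2.61) and Gzma and Gzmb of 7 NK cell and ILC1 genes (27.2 and 21.2 against 0.650 and 1.03) passed toward SI-ILC2s. The part of any of these cells in the levels of the 3 families was not tested. All 14 genes that define ILC2s passed the filter in these libraries, and Gata3, the lineage factor, was at 354 and 377 RPKM in the intestinal libraries and 338 and 397 in the adipose ones, with Areg, the gene of amphiregulin, next at 185 to 255 RPKM. Of the 14, Rora, Id2, Il17rb, Icos and Il13 passed toward SI-ILC2s and Il7r, Il1rl1, Thy1 and Ptprc toward WAT-ILC2s, while 5 did not pass. Il17rb and Il1rl1, the genes of IL-25 and IL-33 receptor chains, were at 164 and 141 against 14.3 and 10.3 RPKM and at 14.3 and 15.4 against 65.7 and 63.4 RPKM.

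Genes that work with these families were taken from 6 lists, in which 45 of 67 genes were tested, 11 passed toward SI-ILC2s and 15 toward WAT-ILC2s, with a median change of -0.14. Over all 8230 tested genes, 17.9% passed toward SI-ILC2s and 29.6% toward WAT-ILC2s with a median of -0.15, so these lists together lay near the background. Of 16 partners of S100 proteins and annexins 7 were tested, 4 passed toward WAT-ILC2s and 0 toward SI-ILC2s. Ahnak, which encodes a giant scaffold bound by the complex of S100A10 and annexin A2, was at 1.78 and 1.41 RPKM in the intestinal libraries and 5.01 and 4.04 in the adipose ones. Plat, the gene of the plasminogen activator that the same complex can bind, was at 1.93 and 5.46 RPKM in the intestinal libraries and 8.33 and 10.8 in the adipose ones. Cav1, which encodes caveolin-1, was at 0.772 and 4.33 against 6.51 and 8.03 RPKM, and Clic1 also passed, named here after its values were seen. Endothelial cells also express Plat and Cav1. The part of endothelial RNA in them was not tested. Myh9, the myosin bound by S100A4, was at 3.46 and 4.88 RPKM in the intestinal libraries and 3.82 and 4.32 in the adipose ones, so the libraries overlapped. Ager, which encodes the S100 receptor RAGE, stayed at or below 0.594 RPKM.

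Receptors and ligand proteins of galectins were all tested, and 4 of 14 passed in each direction. The shares over all tested genes were 17.9% toward SI-ILC2s and 29.6% toward WAT-ILC2s. Havcr2, which encodes TIM-3, was at 1.80 and 1.80 RPKM in the intestinal libraries and 0.168 and 0.186 in the adipose ones, the opposite direction from its ligand gene Lgals9. Itga4 (4.73 and 5.24 against 2.23 and 2.52 RPKM) and Cd7, a galectin-1 receptor gene (1.10 and 1.21 against 0.312 and 0.159 RPKM), also lay toward SI-ILC2s. Lgals3bp, which encodes a secreted galectin-binding glycoprotein, was at 15.3 and 19.1 RPKM in the intestinal libraries and 29.0 and 33.4 in the adipose ones. Cd47 (24.3 and 24.3 against 55.3 and 50.03 RPKM) and Lamp1 (20.6 and 25.2 against 30.8 and 43.8 RPKM) lay toward WAT-ILC2s too. The 4th call in each direction was Cd44 and Ptprc, named after their values were seen. The 7 fused-type S100 genes, which lie with the S100 genes in the epidermal region of chromosome 3, stayed below 1 RPKM in all 4 libraries.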

How the data were processed

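RNA of 4 libraries of sorted ILC2s was measured by sequencing, and the authors deposited RPKM per gene (22083 genes, 4 columns). Per the submitters' processing notes, STAR 2.6.0 and featureCounts 1.6.0 of Subread were run on GRCm38 (mm10). Annotation, strand setting and handling of multi-mapped reads were not given in the sources used here. Sample titles gave groups and replicate numbers. From the step between low RPKM values, depth was estimated as 55750000 to 76050000 reads (85.0% to 87.5% of low values whole within 0.1, 20% by chance), so read numbers are estimates.

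Values were compared as log2(RPKM + 1) with limma 3.58.1 (R 4.3.3), as the SI-ILC2 group minus the WAT-ILC2 group with a variance trend and no covariate. Genes with at least 1 RPKM in at least 2 libraries were fitted together, with Benjamini-Hochberg adjustment over all 8230 and a threshold of 0.05. Exact permutation of 2 libraries per tissue cannot reach it for any gene. The fit was tested on simulated data. Every tested member was named with its values, as were, per pathway list and direction, up to 3 called genes with the largest change. Each marker list described has its 2 most abundant genes, and other markers were named after their values were seen. The members and all gene lists were chosen with earlier results of these data known. Gene models came from GENCODE M21 (GRCm38) and promoters from RefSeq (GRCm38.p6). Overlaps and 50-base stretches shared with other genes were computed from GENCODE. Tables and plots used Python 3.11.15 with pandas 2.3.3, numpy 2.4.6 and matplotlib 3.10.9. Alternatives were other pseudocounts, filters, scalings, a replicate block, no variance trend and leaving out each library.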

Additional observations from a re-analysis of the deposited data

How the results depend on the processing

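Over 229 combinations of a tested member and an alternative, 209 kept their direction and side of the threshold, 16 lost a call, 3 gained one and 1 changed sign, that of Anxa11 (-0.022 after rescaling to equal sums). Leaving out each library in turn gave 11 to 14 members called toward WAT-ILC2s and 0 toward SI-ILC2s, 1492 to 2551 genes in all toward WAT-ILC2s (1492 without SI-ILC2 replicate 1) and 6 to 17 of the partner and related genes, the lowest again without SI-ILC2 replicate 1. A tissue is then represented by a single library, which is assumed to vary like the other group. A filter of 5 RPKM, which tests fewer genes, left 899 and 1182 genes toward SI-ILC2s and WAT-ILC2s and 6 related genes toward SI-ILC2s. Without a filter 1 member, Lgals7, was called toward SI-ILC2s and 13 toward WAT-ILC2s. Of these 13, 12 were also called with the filter, and the calls of Lgals3, Lgals8 and S100a11 were lost. Counted without a filter, 3 members had SI-ILC2 libraries above WAT-ILC2 libraries. Among members passing the filter this count was 1, and it was 0 after rescaling to equal sums. With a pseudocount of 0.1, 2 tested members differed by more than 1 between SI-ILC2 libraries. Median-of-ratios scaling put the annexin sums at 112 (SI-ILC2) and 199 RPKM (WAT-ILC2), and rescaling to equal sums put them at 102 and 221. With the replicate number as a block, 2271 genes were called toward SI-ILC2s and 17 members toward WAT-ILC2s, with Anxa2 and Anxa7 added. The replicate differences of both tissues had a Pearson's r of 0.57 across genes, which are not independent, but nothing in the labels pairs the libraries. The cause of these changes was not tested. Low read numbers limit the SI-ILC2 values of Lgals1, S100a4 and S100a6.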

Other observations

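Penta-EF-hand proteins and calpains, calcium-binding proteins outside these families, had calls in both directions. Over all tested genes 17.9% passed toward SI-ILC2s and 29.6% toward WAT-ILC2s, so these few calls do not set the list apart. Of 9 tested penta-EF-hand and calpain genes, 3 passed toward SI-ILC2s, namely Pef1 (6.90 and 6.95 against 4.35 and 3.95 RPKM in WAT-ILC2s), Pdcd6, whose protein ALG-2 recruits membrane repair factors (16.1 and 14.6 against 9.36 and 7.54 RPKM), and Capn10. Another 3 passed toward WAT-ILC2s, among them Capn2, the gene of a calcium-activated protease (2.83 and 2.81 RPKM in SI-ILC2s against 9.64 and 11.1 in WAT-ILC2s), Capns1, and Cast, the gene of the calpain inhibitor calpastatin (15.6 and 14.6 against 26.2 and 22.6 RPKM).

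Enzymes that build the sugars bound by galectins passed toward each tissue for 4 of 12 tested genes. The shares over all tested genes were 17.9% toward SI-ILC2s and 29.6% toward WAT-ILC2s. Among the enzyme genes, St3gal1 and Gcnt1 passed toward SI-ILC2s and B4galt1 and Mgat4b toward WAT-ILC2s. Of all these, Gcnt1 and Mgat4b were named after their values were seen. Mgat5, whose product makes the branched N-glycans that galectins bind well, was at 7.73 and 6.82 RPKM in the intestinal libraries and 3.99 and 3.45 in the adipose ones. Mgat2, which acts earlier in the same pathway, was at 13.9 and 14.6 against 7.55 and 7.43 RPKM. St6gal1, which adds a sialic acid that can block galectin-1 binding, was at 0.714 and 0.785 RPKM in the intestinal libraries and 2.98 and 2.91 in the adipose ones. Mgat1, the first enzyme of N-glycan branching, was at 2.01 and 3.28 against 5.67 and 9.85 RPKM.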
